A study of Mus musculus with 8 samples.

Results

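The genes described here encode the synaptonemal complex and the HORMA domain proteins of the meiotic chromosome axis. The 10 genes are *Sycp1*, *Syce1*, *Syce2*, *Syce3*, *Tex12*, *Sycp2*, *Sycp3*, *Hormad1*, *Hormad2* and *Trip13*. They were chosen by name and role, with earlier results of these data known. Each matched a single row on a standard chromosome among the 22603 genes of the abundance table. All 10 passed the filter on low values and are among the 19462 protein-coding genes tested.

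The series compares *Setdb1* conditional knockout (cKO) with wildtype pachytene spermatocytes, to ask what this H3K9 methyltransferase does at the stage when the X and Y chromosomes are silenced. It holds 8 mouse samples, of which 4 are RNA-seq samples: 2 wildtype and 2 *Setdb1* cKO. The other 4 are H3K9me3 ChIP and input samples, which were not analysed here. Wildtype cells came from C57BL/6J males at postnatal day 15, with no Cre transgene. The cKO males carried a floxed and a deleted *Setdb1* allele (*Setdb1* flox/-), the *Ngn3-Cre* transgene and an EYFP Cre reporter at *Gt(ROSA)26Sor*, on the C57BL/6J background, and were at day 15 or older. *Ngn3-Cre* becomes active in spermatogonia, and its driver is also active in endocrine cells outside the testis. The wildtype males were not littermates with floxed alleles, so genotype cannot be told apart from the reporter, the transgene, age or litter. Early-to-mid pachytene cells were sorted by DNA staining, and RNA from 500 cells was amplified by Smart-seq2. Neither the labels nor the methods say that the samples of a genotype came from separate animals, so the p-values describe how these samples scatter, which could be technical in origin.

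Levels are given as TPM, a relative transcript abundance that is divided by transcript length and can be set side by side between genes. *Setdb1* itself, the deleted gene, was measured at 56.9 and 59.3 TPM in wildtype replicates 1 and 2 and at 28.7 and 37.2 TPM in cKO replicates 1 and 2. The cKO mean was 56.7% of wildtype, and the difference missed the threshold (log2 fold change -0.81 ± 0.27, limma adjusted p = 0.269). Per the paper, the deletion removes the core of the SET domain, so transcripts from the rest of the gene can still count here. Whether they account for the remaining signal was not tested. The paper also reports less SETDB1 protein in cKO testes. The samples of a genotype correlated at r = 0.974 (wildtype) and 0.923 (cKO) across genes on the log2 scale, and samples of different genotypes at 0.876 to 0.952. All 9 pachytene marker genes were detected in every sample, with a summed level of 3356 and 3958 TPM in wildtype, against 2802 and 4531 TPM in cKO. Most of each sum came from *Ldhc*, at 2524 and 3001 TPM in wildtype, against 1902 and 3077 TPM in cKO. Of the pachytene markers, *Ccna1*, *Adam3* and *Spag6* were higher in cKO. *Spag6* was low in wildtype, at 1.58 and 0.527 TPM, against 109 and 8.15 TPM in cKO. *Piwil1* was at 445 and 488 TPM in wildtype, against 27.2 and 190 TPM in cKO without passing the test. The 10 spermatid markers summed to 18.1 and 21.8 TPM in wildtype, against 825 and 42.1 TPM in cKO, with *Tnp1* at 0 in wildtype replicate 1 and cKO replicate 2. Other marker sums were also highest in cKO replicate 1, with 426 TPM over 7 spermatogonial markers (157 to 267 TPM in the other samples), 760 TPM over 5 Leydig markers (91.6 to 240 TPM) and 234 TPM over 4 erythroid markers (38.1 to 69.4 TPM). The 6 leptotene and zygotene markers summed to 155 and 180 TPM in wildtype, against 246 and 191 TPM in cKO, the 7 Sertoli markers to 285 to 355 TPM, and peritubular, endothelial and macrophage markers to at most 42.4 TPM a list. Of the markers other than pachytene ones, 1 passed the test, the leptotene gene *Gm4969*, higher in cKO.

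In meiotic prophase each chromosome is organised along a proteinaceous axis, and the synaptonemal complex zips the axes of paired homologues together. SYCP2 and SYCP3 build the axial element, which becomes the lateral element on synapsis; SYCP1 dimers bridge the gap as transverse filaments, and SYCE1, SYCE2, SYCE3 and TEX12 hold the filaments together in the central element. HORMAD1 and HORMAD2 coat axes that are not synapsed, where they support the recruitment of the kinase ATR. HORMAD1 also promotes DNA break formation, and the ATPase TRIP13 strips the HORMAD proteins off once synapsis is made.

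All 10 genes were well expressed, from 24.1 to 928 TPM in any sample, and in wildtype their mean level lay between the 72.8th (*Trip13*) and the 99.6th (*Sycp3*) percentile of the genes tested. In cKO, *Tex12* and *Sycp2* were called lower, at 50.1% and 51.5% of wildtype, and none of the 10 was called higher. *Hormad2*, at 49.6%, just missed the threshold, and *Syce2* stood at 107% without passing the test. The members thus had 2 of 10 called lower, where 1.11% of all genes tested were called lower (limma on log2(TPM + 1), adjusted p under 0.2), and 0 of 10 called higher, where 3.48% of all genes were; 0 were higher at an unadjusted p under 0.05 either. At an unadjusted p under 0.05, 5 of 10 were lower, against 4.39% of all genes. Both cKO samples lay below both wildtype samples for 7 of 10, against 18.1% of all genes. The log2 fold change was below 0 for 9 of 10, against 43.9% of all genes, with a median of -0.66 over the members and 0.08 over all genes tested. In bulk samples, fewer cells expressing a gene and less RNA per cell cannot be told apart.

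The calls depend on every wildtype sample: without wildtype replicate 1, or without wildtype replicate 2, limma called 0 of the 10 members and 0 of all genes tested; at an unadjusted p under 0.05 these fits had 3 and 0 members lower. Without cKO replicate 1 the members called lower were *Tex12* and *Syce3*, and *Sycp2* was no longer called (adjusted p = 0.243); without cKO replicate 2 they were *Tex12*, *Sycp2* and *Hormad2*. The summed level of the members was 69.7% of the wildtype mean in cKO replicate 1 and 68.5% in cKO replicate 2, and their median log2 fold change was -0.49 and -0.68, respectively. The part of the spermatid and other markers in the members' levels was not tested.

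**Figure D1:**
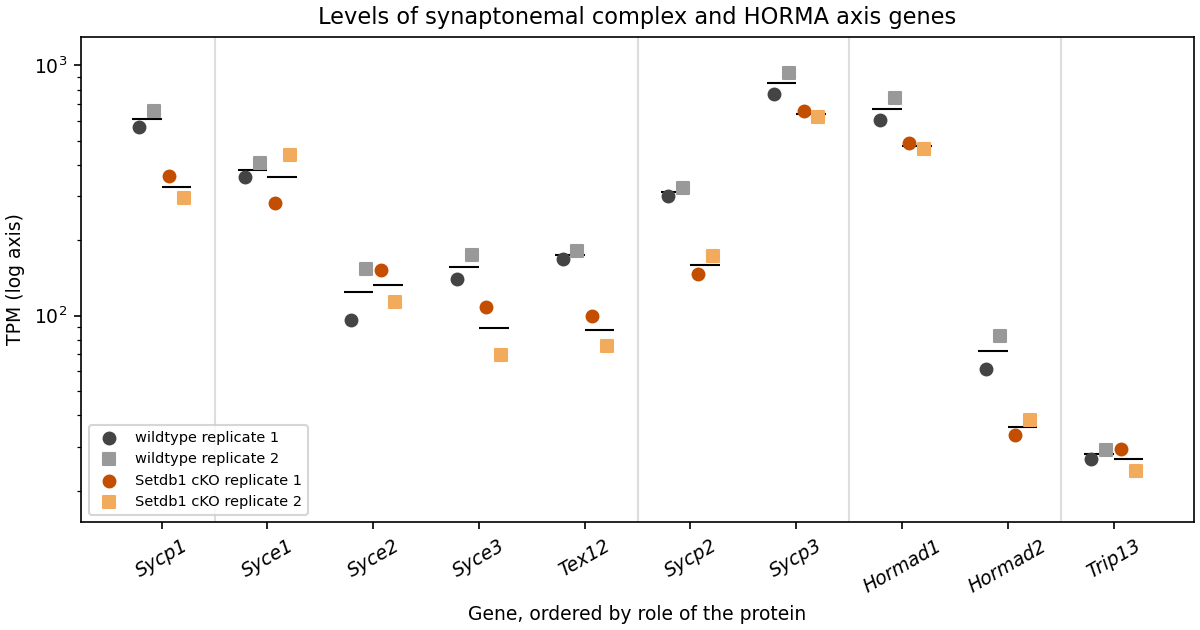
TPM of each gene (log axis) in the 2 wildtype samples (grey) and the 2 *Setdb1* cKO samples (orange), with horizontal bars at the genotype means; grey vertical lines separate transverse filament, central element, axial element, HORMA proteins and TRIP13. Both orange points lie under both grey points for 7 genes, and the points overlap for *Syce1*, *Syce2* and *Trip13*.

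In wildtype cells the order of the mean levels was *Sycp3*, *Hormad1*, *Sycp1*, *Syce1*, *Sycp2*, *Tex12*, *Syce3*, *Syce2*, *Hormad2* and *Trip13*. Neighbours whose values overlapped across the wildtype samples were *Hormad1* with *Sycp1*, *Tex12* with *Syce3* and *Syce3* with *Syce2*. Within each wildtype sample the order of these pairs was that of the means, which was not tested. In cKO cells *Syce1* (mean 359 TPM) came before *Sycp1* (327 TPM), and *Syce2* (133 TPM) came before *Syce3* (89.2 TPM) and *Tex12* (87.4 TPM). The cKO samples overlapped for *Syce1* with *Sycp1*, *Sycp2* with *Syce2* and *Syce3* with *Tex12*, and the order within each of these pairs differed between the 2 cKO samples. *Sycp3* and *Hormad1* stayed the most abundant pair, and *Hormad2* and *Trip13* the least abundant, in both genotypes.

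The promoters of the genes are shown because the members lie on different chromosomes, apart from *Sycp1* and *Hormad1* (chr3), but are used in the same cells. Sequences are RefSeq promoters of build GRCm38.p6, 300 bases from 250 before to 50 after the start site, 5′ to 3′ on the strand of the gene, and all 10 genes had one. Capitals mark letters of 4 motifs searched on both strands: the E-box CACGTG, the STRA8 motif CNCCTCAG, the E2F6 core TCCCGC, and the MYB core CAACNG or TAACNG. *Sycp1* (chr3:102936051-102936350, minus strand) is printed as the single member that holds all 4, with 2 MYB core matches that overlap each other.
Sycp1: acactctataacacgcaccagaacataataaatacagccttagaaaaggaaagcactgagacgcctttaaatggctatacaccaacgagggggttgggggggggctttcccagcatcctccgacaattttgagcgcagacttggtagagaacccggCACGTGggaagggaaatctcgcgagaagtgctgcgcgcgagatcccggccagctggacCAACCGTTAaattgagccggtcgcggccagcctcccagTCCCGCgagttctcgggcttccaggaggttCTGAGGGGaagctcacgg
*Sycp3* (chr10:88459337-88459636, plus strand) and *Hormad1* (chr3:95559427-95559726, plus strand) are printed because each holds the E-box at 2 places.
Sycp3: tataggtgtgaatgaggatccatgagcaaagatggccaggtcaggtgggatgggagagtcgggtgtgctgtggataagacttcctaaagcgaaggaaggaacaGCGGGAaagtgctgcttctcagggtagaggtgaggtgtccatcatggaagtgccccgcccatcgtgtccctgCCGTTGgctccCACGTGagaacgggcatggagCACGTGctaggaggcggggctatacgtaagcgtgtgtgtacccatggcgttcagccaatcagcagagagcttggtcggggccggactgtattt
Hormad1: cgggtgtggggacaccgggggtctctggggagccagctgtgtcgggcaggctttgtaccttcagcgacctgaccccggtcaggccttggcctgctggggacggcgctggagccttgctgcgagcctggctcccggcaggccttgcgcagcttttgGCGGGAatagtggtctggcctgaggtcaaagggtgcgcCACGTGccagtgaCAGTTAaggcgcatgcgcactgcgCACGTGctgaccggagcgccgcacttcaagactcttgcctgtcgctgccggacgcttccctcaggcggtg
*Tex12* (chr9:50561219-50561518, minus strand) and *Syce2* (chr8:84871861-84872160, plus strand) encode partners of the same fibre, and are printed because *Tex12* fell and *Syce2* did not pass the test.
Tex12: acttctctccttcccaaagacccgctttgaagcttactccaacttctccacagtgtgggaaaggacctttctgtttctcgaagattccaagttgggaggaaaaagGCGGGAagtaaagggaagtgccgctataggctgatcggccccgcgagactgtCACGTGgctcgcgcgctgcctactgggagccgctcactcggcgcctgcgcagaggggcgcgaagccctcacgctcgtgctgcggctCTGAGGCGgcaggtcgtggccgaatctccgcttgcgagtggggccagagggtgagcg
Syce2: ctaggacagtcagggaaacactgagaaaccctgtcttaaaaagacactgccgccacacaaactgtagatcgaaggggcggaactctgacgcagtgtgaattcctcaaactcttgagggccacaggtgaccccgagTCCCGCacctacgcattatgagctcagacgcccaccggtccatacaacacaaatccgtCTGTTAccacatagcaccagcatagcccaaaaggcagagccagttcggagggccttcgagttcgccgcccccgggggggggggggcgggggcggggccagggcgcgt
*Sycp2* (chr2:178407609-178407908, minus strand) is printed as the other member called lower.
Sycp2: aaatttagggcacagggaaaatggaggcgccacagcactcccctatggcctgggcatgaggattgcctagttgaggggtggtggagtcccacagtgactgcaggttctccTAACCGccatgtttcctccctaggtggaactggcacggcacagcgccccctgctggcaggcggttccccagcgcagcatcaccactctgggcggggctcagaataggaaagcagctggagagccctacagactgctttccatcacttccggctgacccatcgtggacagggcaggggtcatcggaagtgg

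The E-box was found in 4 of the 10 member promoters (*Sycp1*, *Tex12*, *Sycp3* and *Hormad1*) and in 7.15% of the 32851 mouse promoters of the same length. In these 4 promoters its first base lay 20 to 94 bases before the start site. The STRA8 motif was found in 3 members (*Sycp1*, *Tex12* and *Hormad2*) and in 7.94% of all promoters, and the E2F6 core in 5 members (*Sycp1*, *Syce2*, *Tex12*, *Sycp3* and *Hormad1*) and in 20% of all. The MYB core was in 8 members, all but *Tex12* and *Trip13*, and in 49.7% of all promoters. *Trip13* held none of the 4, although its promoter had the most CpG dinucleotides (34), and *Syce3* had the fewest (5); the median over all promoters was 7. GC content ranged from 54.7% to 67.3% over the members, with a median of 52.7% over all promoters. The promoters of the 2 members called lower did not share these letters. *Tex12* held the E-box, the STRA8 motif and the E2F6 core, and *Sycp2* only the MYB core. *Hormad2* and *Sycp1*, with changes of similar size, just missed the threshold (limma adjusted p = 0.207 and 0.219). *Hormad2* held the STRA8 motif and the MYB core, and *Sycp1* all 4 motifs. A match describes letters in this window and does not show that a factor binds there.

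**Figure D2:**
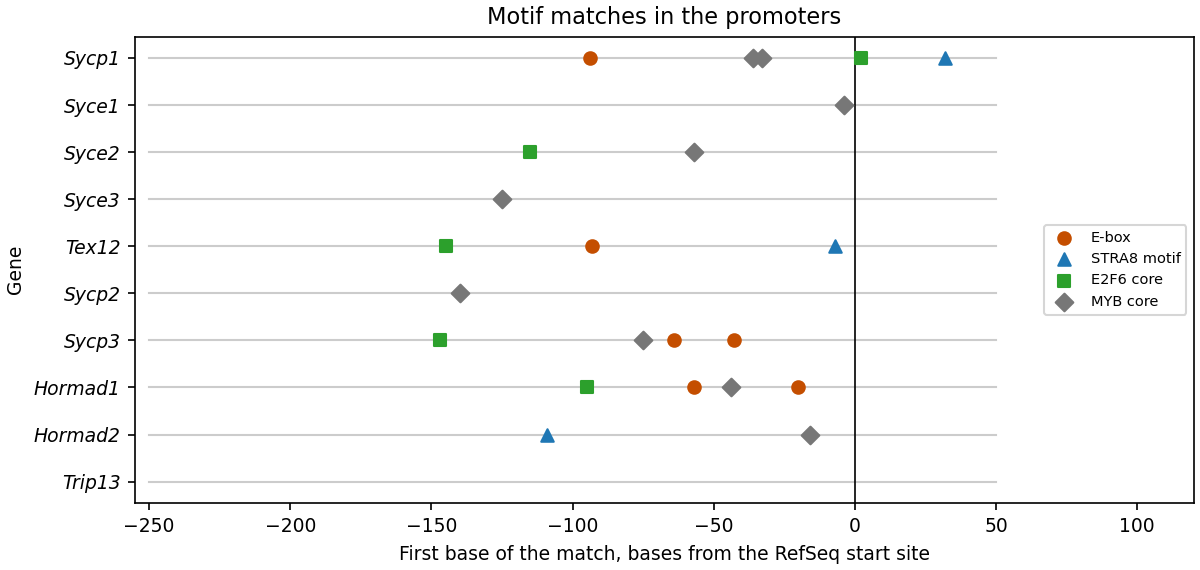
Position of each motif match in bases from the RefSeq start site, with 1 row a gene and a grey line over the 300 bases searched; symbols mark the motif. All 6 E-box matches lie between 94 and 20 bases before the start site, in 4 genes, and *Trip13* has no match.

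*Sycp1* (chr3:102818499-102936100, minus strand) encodes the transverse filament protein. It was at 566 and 654 TPM in wildtype, against 360 and 295 TPM in cKO. Every cKO sample was lower than every wildtype sample, and the cKO mean was 53.7% of wildtype. The log2 fold change was -0.90 ± 0.26 (SE; 95% confidence interval -1.53 to -0.27), which just missed the threshold (limma adjusted p = 0.219).

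Of the 4 central element genes, 1 passed the test. *Tex12* (chr9:50556819-50561325, minus strand), whose product polymerises with SYCE2 into the fibres of the central element, was at 168 and 181 TPM in wildtype, against 99.4 and 75.5 TPM in cKO. The samples did not overlap, and *Tex12* fell with a log2 fold change of -1.0 ± 0.25 (95% confidence interval -1.60 to -0.41, limma adjusted p = 0.167). *Syce2* (chr8:84872111-84888221, plus strand), its partner, was at 96.0 and 153 TPM in wildtype, against 152 and 114 TPM in cKO. The cKO samples of *Syce2* lay inside the wildtype range, with a log2 fold change of 0.12 ± 0.31 (95% confidence interval -0.62 to 0.86), a sign that turned to -0.18 after rescaling to the median autosomal gene. *Syce3* (chr15:89390174-89410503, minus strand), which in mouse is needed to load the other central element proteins, was at 140 and 174 TPM in wildtype, against 108 and 69.9 TPM in cKO, 56.8% of the wildtype mean. Its samples did not overlap either, but the log2 fold change of -0.83 ± 0.30 did not pass the test (limma adjusted p = 0.297). *Syce1* (chr7:140777229-140787852, minus strand), a central element protein that binds SYCE3, was at 358 and 408 TPM in wildtype, against 282 and 437 TPM in cKO. The cKO samples lay on either side of the wildtype pair, and the log2 fold change was -0.12 ± 0.30 (95% confidence interval -0.83 to 0.59), turning to 0.19 without cKO replicate 1.

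Of the axial element pair, *Sycp2* (chr2:178345293-178407685, minus strand), whose product anchors SYCP3 in the axis, was at 299 and 322 TPM in wildtype, against 147 and 173 TPM in cKO. The samples within a genotype lay close together and those of different genotypes far apart, and *Sycp2* fell with a log2 fold change of -0.96 ± 0.24 (95% confidence interval -1.52 to -0.39, limma adjusted p = 0.166). *Sycp3* (chr10:88459569-88473236, plus strand), the partner of SYCP2 and the usual cytological marker of the axis, was at 769 and 928 TPM in wildtype, against 656 and 623 TPM in cKO. It remained the most abundant member in all 4 samples. Its cKO mean was 75.4% of wildtype and its log2 fold change -0.40 ± 0.28 (95% confidence interval -1.06 to 0.26), which did not pass the test (limma adjusted p = 0.607).

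*Hormad1* (chr3:95559677-95587671, plus strand), whose product marks unsynapsed axes and promotes break formation and homologue pairing, was at 604 and 738 TPM in wildtype, against 488 and 464 TPM in cKO. Its samples did not overlap, but the log2 fold change of -0.49 ± 0.27 (95% confidence interval -1.12 to 0.15) did not pass the test (limma adjusted p = 0.495). *Hormad2* (chr11:4345814-4441105, minus strand), whose product is needed for ATR to gather on unsynapsed axes, was at 61.3 and 83.0 TPM in wildtype, against 33.3 and 38.3 TPM in cKO. This was the lowest share of wildtype among the 10 genes, 49.6%, with a log2 fold change of -0.98 ± 0.28 (95% confidence interval -1.64 to -0.32) that lay just outside the threshold (limma adjusted p = 0.207). *Trip13* (chr13:73911347-73937784, minus strand), which encodes the ATPase that removes HORMA proteins from synapsed axes, was at 26.9 and 29.1 TPM in wildtype, against 29.3 and 24.1 TPM in cKO. Its genotypes overlapped, with a log2 fold change of -0.07 ± 0.29 (95% confidence interval -0.77 to 0.62).

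**Figure D3:**
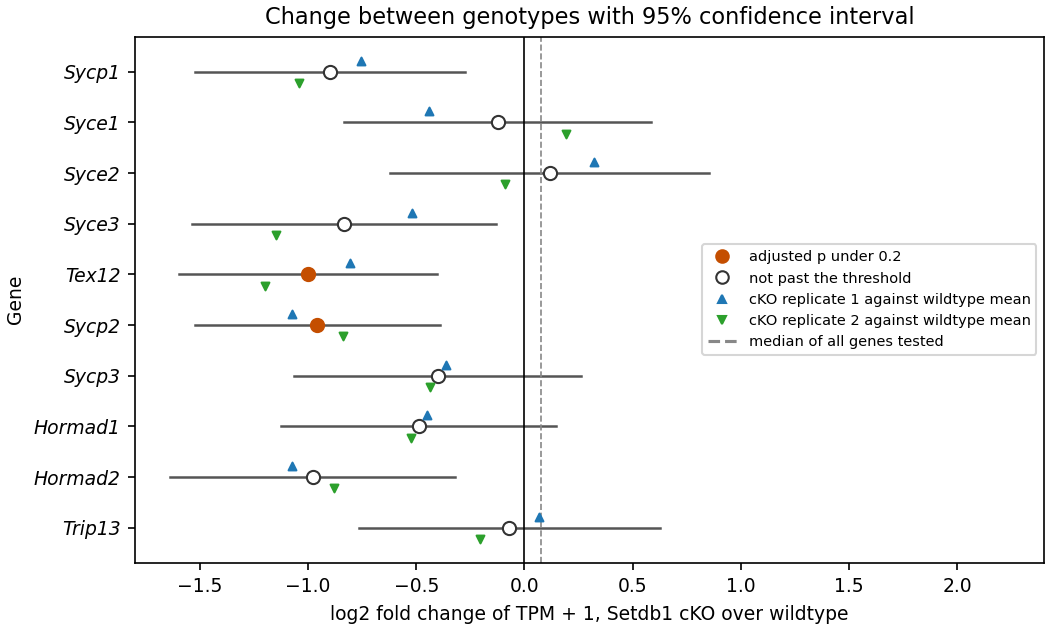
Log2 fold change of TPM + 1, cKO over wildtype, for each gene (circles, with 95% confidence interval; filled where the limma adjusted p is under 0.2), with each cKO sample against the wildtype mean as triangles and the median of all genes tested, 0.08, as a dashed line. The 2 filled circles are *Tex12* and *Sycp2*, and the intervals of *Sycp1*, *Syce3* and *Hormad2* also lie below 0.

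Summed by role, the transverse filament (*Sycp1* alone) stood at 53.7% of wildtype in cKO, the central element at 79.7%, the axial element at 69.0% and the HORMAD pair at 68.8%. *Trip13*, alone in its role, stood at 95.4%, and its samples overlapped. The central element sum was 762 and 916 TPM in wildtype, against 641 and 697 TPM in cKO, and the axial element sum 1068 and 1250 TPM in wildtype, against 803 and 796 TPM in cKO. The sum of all 10 genes was 3089 and 3670 TPM in wildtype, against 2355 and 2314 TPM in cKO. Apart from *Trip13*, none of these sums overlapped between genotypes. With 2 samples a genotype, however, the smallest p of a two-sided exact permutation test is 0.33, and each of the 5 sums without overlap had it.

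Because TPM values are relative, the ratio of 2 genes within a sample shows unequal change whatever the scaling of that sample. *Syce2* to *Tex12* was 0.570 and 0.847 in wildtype and 1.53 and 1.51 in cKO, a 2.19-fold higher ratio: *Tex12* was the more abundant transcript of the pair in both wildtype samples and *Syce2* in both cKO samples. *Hormad1* to *Hormad2* was 9.86 and 8.89 in wildtype and 14.6 and 12.1 in cKO. *Sycp2* to *Sycp3* was 0.389 and 0.347 in wildtype and 0.224 and 0.278 in cKO, so that *Sycp2* was the scarcer of the axial pair in every sample and scarcer still in cKO. *Sycp1* to *Syce1* was 1.58 and 1.60 in wildtype and 1.28 and 0.675 in cKO, where the cKO samples differed more from each other than cKO replicate 1 did from wildtype. *Sycp1* to *Sycp3* was 0.736 and 0.705 in wildtype and 0.548 and 0.473 in cKO, and *Trip13* to *Hormad1* was 0.0444 and 0.0394 in wildtype and 0.0601 and 0.0519 in cKO. None of the 6 ratios overlapped between the genotypes, each with the smallest p that the exact permutation test can give here, 0.33, and 0.33 also after Benjamini-Hochberg adjustment over the 6. The ratios are not independent, because *Sycp1*, *Sycp3* and *Hormad1* each enter more than 1, and they restate the changes of single members. How often other gene pairs separate in this way was not counted.

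**Figure D4:**
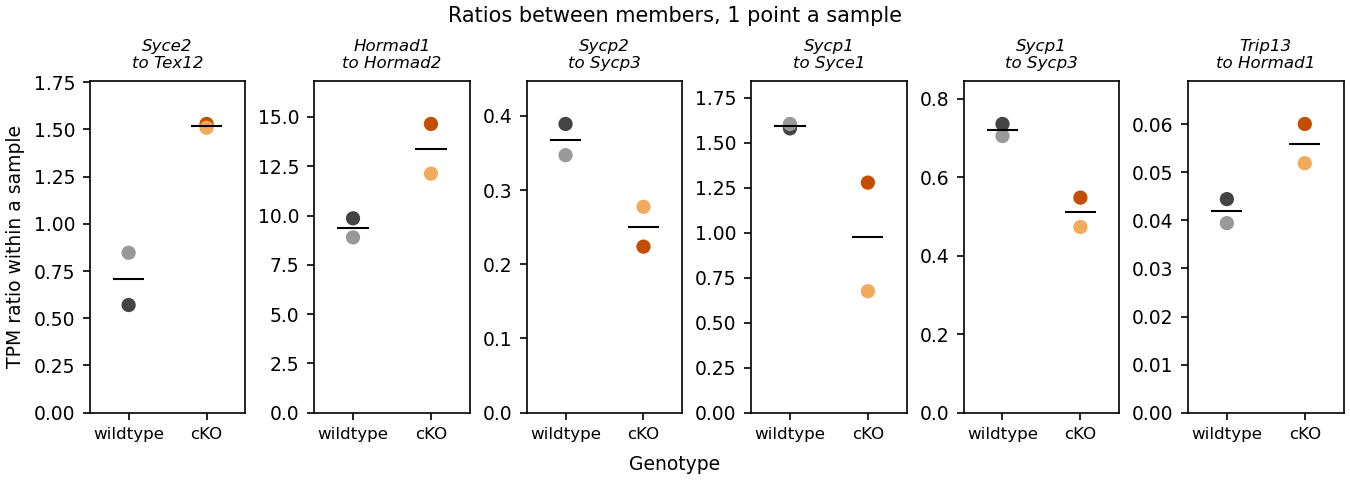
Ratio of TPM between 2 genes within a sample, from 0, for wildtype (grey) and cKO (orange; darker shade, replicate 1), 1 point a sample with bars at the means; each panel has its own scale. The *Syce2* to *Tex12* ratio lies under 1 in both wildtype samples and at 1.51 and 1.53 in cKO.

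Other genes of the axis and of synapsis were counted in 6 lists, which were also chosen with earlier results of these data known. Among 11 genes of the asynapsis response, which act on HORMAD-coated axes, 5 fell and 0 rose, where 1.11% of all genes tested were called lower and 3.48% higher, and the median log2 fold change of the list was -0.95. *Rad9b*, a germline-enriched paralogue of a subunit of the checkpoint clamp, fell from 101 and 109 TPM to 34.4 and 36.5 TPM (limma adjusted p = 0.0683). *H2afx*, which encodes the histone H2AX that ATR phosphorylates, fell from 370 and 484 TPM to 199 and 132 TPM (limma adjusted p = 0.132). *Atr* itself fell from 121 and 135 TPM to 53.6 and 68.4 TPM (limma adjusted p = 0.152). The other 2 that fell were *Mdc1*, the adaptor that spreads the H2AX mark (limma adjusted p = 0.168), and *Rad1*, a clamp subunit (limma adjusted p = 0.188), named after their values were seen. These are RNA levels and do not give the level or place of a protein. By staining of adult cKO early pachytene cells, the paper reports that ATR, MDC1, TOPBP1, BRCA1, phosphorylated H2AX, HORMAD2 and SYCP3 reached the XY pair normally. Without cKO replicate 1 the list had 2 called lower, and without wildtype replicate 1 or 2 it had 0.

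Among 9 assembly and disassembly factors, 2 fell and 2 rose, beside 1.11% of all genes tested called lower and 3.48% called higher, and the median log2 fold change was 0.17. *Ccnb1ip1*, also called HEI10, a crossover factor of the central region, fell from 48.6 and 43.6 TPM to 11.4 and 4.60 TPM (limma adjusted p = 0.0847). *Psma8*, a spermatocyte-specific proteasome subunit, fell from 504 and 577 TPM to 58.5 and 165 TPM (limma adjusted p = 0.102). *Plk1*, a kinase that drives disassembly of the complex, rose from 20.4 and 35.6 TPM to 121 and 108 TPM (limma adjusted p = 0.0683). *Aurkb*, another kinase of late prophase, rose from 17.8 and 19.9 TPM to 42.0 and 50.1 TPM (limma adjusted p = 0.146) and was named after its value was seen. These 4 calls were also lost without wildtype replicate 1 or 2, and 1 of the 2 higher calls was lost after rescaling to the median autosomal gene.

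In the other 4 lists 0 genes passed the test; at an unadjusted p under 0.05 they held 2 lower break-formation partners, 3 higher cohesin genes, 1 higher HORMA relative and 0 other synaptonemal complex genes, where 4.39% of all genes tested were lower and 9.19% higher at that p. The 7 axis partners of HORMAD1 in break formation had a median log2 fold change of -0.30. *Ankrd31* was at 69.6 and 78.0 TPM in wildtype, against 25.0 and 46.0 TPM in cKO (limma adjusted p = 0.244), *Spo11*, the break-forming enzyme, at 90.7 and 100.1 and at 34.4 and 73.6 TPM (0.365), and *Ccdc36*, also called IHO1, at 15.6 and 19.2 and at 9.31 and 13.6 TPM (0.582). Both cKO samples lay below both wildtype samples for these 3 of the 7 genes, which were picked for the smallest p, and the genotypes overlapped for the other 4; over all genes tested the share was 18.1%. The 13 cohesin genes had a median of 0.57. Its genes with the smallest p were the meiotic kleisin *Rad21l* (0.0873 and 1.93 TPM in wildtype, 6.08 and 5.04 TPM in cKO, limma adjusted p = 0.247) and the X-linked *Stag2* (7.26 and 6.11 TPM, 23.0 and 13.6 TPM, 0.269) and *Smc1a* (9.28 and 11.7 TPM, 38.4 and 17.0 TPM, 0.320). For the 5 other synaptonemal complex proteins and paralogues the median was -0.35. *Meikin*, known as a kinetochore regulator of the first division, was at 39.4 and 56.5 TPM in wildtype, against 21.0 and 33.1 TPM in cKO (limma adjusted p = 0.369). *Sycp2l*, the paralogue of *Sycp2*, was at 1.65 and 0.937 TPM in wildtype, against 0.814 and 0.124 TPM in cKO (0.523), and *Fkbp6* at 215 and 239 and at 234 and 134 TPM (0.714). For the 5 HORMA domain relatives and TRIP13 cofactor the median was -0.07. *Atg13*, an autophagy factor, was at 25.3 and 29.9 TPM in wildtype, against 52.8 and 42.7 TPM in cKO (limma adjusted p = 0.313), *Atg101*, its partner, at 35.8 and 42.5 and at 40.3 and 22.7 TPM (0.745), and *Mad2l2* at 308 and 402 and at 174 and 414 TPM (0.779). In a fit with a block for the replicate number, 1 break-formation partner was called lower and 1 cohesin gene higher. That fit called 318 of the 19462 genes tested lower and 1091 higher. These lists also gained calls when a cKO sample was left out.

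**Figure D5:**
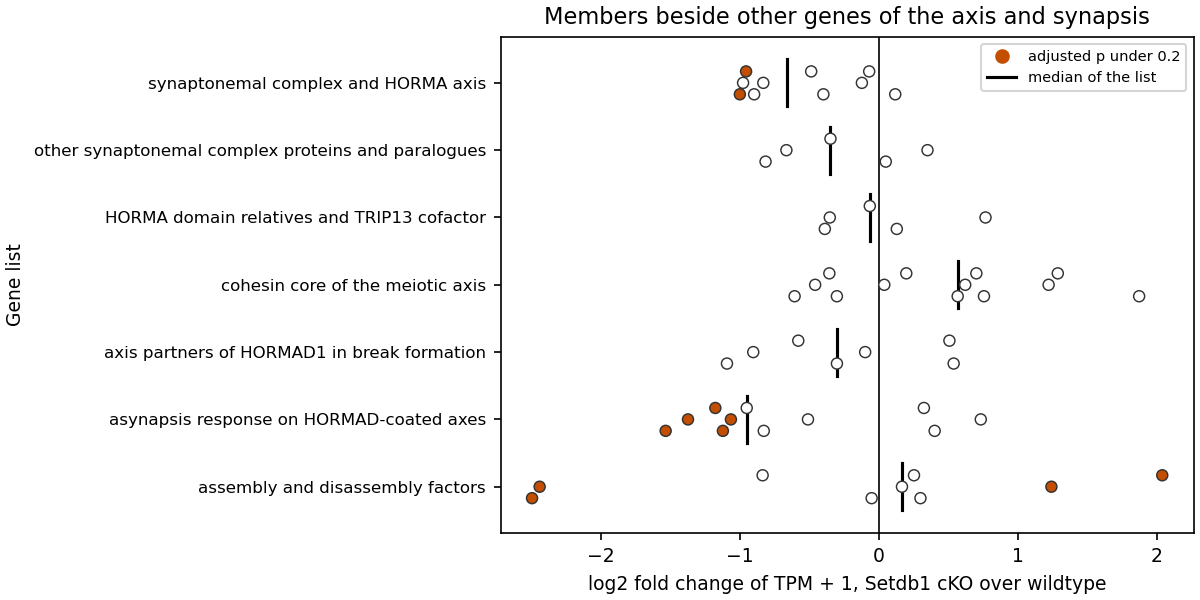
Log2 fold change of TPM + 1, cKO over wildtype, with 1 circle a gene, for the 10 members and the 6 other lists (filled, limma adjusted p under 0.2), and the list median as a vertical bar; vertical offset within a row carries no value. The members and the asynapsis response have medians of -0.66 and -0.95, and the cohesin genes 0.57. The cohesin medians of the single cKO samples, not drawn, are 0.18 (replicate 1) and 0.22 (replicate 2).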

How the data were processed

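The values analysed come from RNA-seq of sorted pachytene cells, 2 samples of wildtype and 2 of *Setdb1* cKO. Per the methods, the authors quantified transcripts with kallisto against GRCm38 and summed them to genes with sleuth. The deposited values are TPM per gene and sample, handled as a signal because the columns sum to between 942186 and 1109730 rather than to a common total. Read counts were not used, so depth and counting error are unknown. The table also holds genotype means and the p-values, q-values and effect sizes of the authors' own comparison, which were not used.

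The filter kept protein-coding genes whose mean exceeded 0.1 TPM in a genotype or both. Log2(TPM + 1) values were compared with limma 3.58.1 in R 4.3.3 (eBayes with a trend), which stands in for the study's sleuth test, with p-values adjusted by Benjamini-Hochberg across the genes tested and called under 0.2, the cutoff of the methods. A fold change on this scale understates the change of low genes. The code was tested on simulated data. Gene positions come from the GENCODE annotation of GRCm38. Python 3.11.15 and matplotlib 3.10.9 drew the figures.

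The members and lists were chosen with earlier results of these data known. Named genes are *Setdb1*, the 10 members and the 3 genes of each pathway list with the smallest p. *Mdc1*, *Rad1*, *Aurkb*, *Stag1*, *Stag3*, *Smc1b* and the cell type markers named were chosen after their values were seen. A comparison of the HORMAD proteins was not analysed here. The 17 alternatives were other pseudocounts, filters, scalings, eBayes settings and thresholds, a replicate block, and each sample left out.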

Additional observations from a re-analysis of the deposited data

How the results depend on the processing

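The count of members called lower was 2 as reported, where 1.11% of all genes tested were called lower. It was 4 with a pseudocount of 0.1 (1.38% of all genes), 4 with a filter at 1 TPM (1.53%) and 4 with a replicate block (1.63%). It was 1 with quantile normalization (0.909%), 0 with eBayes without a trend (0.288%), and 0 with a threshold of 0.1 or 0.05. The count called higher was 0 under all 17 alternatives. The replicate numbers are shared between genotypes. Across the genes tested, the difference between wildtype replicates 1 and 2 correlated at 0.025 with the difference between cKO replicates 1 and 2. Whether same-numbered samples share more than a number was not tested. The block called *Sycp1*, *Tex12*, *Sycp2* and *Hormad2*, and 318 genes lower and 1091 higher over all genes, against 217 and 678 as reported. Over all genes, lower and higher calls were 56 and 392 with eBayes without a trend, 136 and 534 when cKO replicate 1 was left out, 1251 and 2586 when cKO replicate 2 was, and 0 and 0 without wildtype replicate 1 or 2 (258 and 726, and 267 and 815, at an unadjusted p under 0.05), where a lone sample is assumed to vary like the other genotype.

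The median log2 fold change of the members was -0.66 as reported, -0.96 after rescaling to the median autosomal gene, and -0.81 to -0.49 with 1 sample left out. This rescaling moved the median of all genes from 0.08 to -0.14, and quantile normalization moved it to -0.11; relative to it the members' median was -0.74 as reported, -0.83 rescaled and -0.51 after quantile normalization. The share of calls that were higher was 75.8% as reported and 64.9% after rescaling. *Tex12* was called lower in 11 of 15 fits, *Sycp2* in 10, *Hormad2* in 6, *Sycp1* in 4 and *Syce3* in 2. The sign of *Syce2* turned after rescaling (-0.18), and leaving out 1 sample gave -0.22 to 0.45 for *Syce2*, -0.44 to 0.19 for *Syce1* and -0.21 to 0.066 for *Trip13*; the cause was not tested. The asynapsis response list had 3 genes lower with quantile normalization and 1 with eBayes without a trend. The assembly and disassembly list had 1 gene higher after rescaling, with quantile normalization and with eBayes without a trend, and 1 lower with the last of these. The lowest adjusted p of any member in these fits was 0.0838 (*Sycp2*).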
